A study of Bos taurus with 12 samples.

Results

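The genes described here encode the potassium, voltage-gated calcium and voltage-gated sodium channels of cattle and the smaller proteins that assemble with them. A cytosine was counted for a channel gene when the deposited table placed it in or beside that gene (promoter, exon, intron, untranslated region or just downstream) and the gene's symbol began with KCN, CACN or SCN followed by a digit. This gave 71 genes of the 10773 that held at least 1 such cytosine, and 1478 of the 216990 deposited cytosines (0.681%). Blood was taken from 12 dairy cows aged 3 to 8 years that were kept on 1 farm under the same conditions. The subfertile group held 6 cows that were removed from the herd in the year after sampling for reproductive problems not yet known when the blood was drawn. The fertile group held 6 cows that remained in the herd without a fertility problem. No breed, treatment or individual age is given for either group. The labels enter Fertile or Subfertile under genotype, and no DNA genotype is given. The groups are defined by outcome. Whole blood DNA was converted enzymatically, and the values give, for each cow and cytosine, what percent of the calls was methylated (positions are those of ARS-UCD1.2). All deposited cytosines had been selected beforehand by the authors for a difference between these same cows, so a difference at a single cytosine is how it came to be listed and is no finding here. The comparison asked how far methylation in blood, drawn before the fertility outcome was known, differed between the groups within this gene family.

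Ion channels are membrane proteins that open a selective pore when the voltage across the membrane, an ion or a ligand changes. Potassium channels bring the membrane back to rest, sodium channels start the action potential of nerve and muscle, and voltage-gated calcium channels turn a voltage change into calcium entry, which drives secretion and contraction. White blood cells are not electrically excitable in this sense, yet potassium channels, the calcium-activated KCNN4 among them, set the driving force for calcium entry in lymphocytes. In the female reproductive tract the large-conductance potassium channel encoded by KCNMA1 is known for quieting the muscle of the uterus, and calcium channels of the CACNA1 family carry the current that contracts it. Methylation of a promoter is often linked to silencing, whereas methylation within an intron has no single meaning.

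The gene names rest on the deposited annotation, and the table holds no expression, so whether blood cells used these genes could not be checked in it. Of 134 RefSeq gene symbols that match the same name pattern, 71 (53.0%) had a deposited cytosine in the gene. The cows differed little in the mean over all channel cytosines, which ran from 51.2% to 56.5% in the subfertile cows and from 49.8% to 56.4% in the fertile cows. Cytosines without a value made up 0.406% to 4.80% of the channel cytosines per cow, with the most in subfertile cow 3. Of 38 marker genes of blood cell types, 20 had a deposited cytosine, and their mean methylation ran from 57.9% to 62.6% in the subfertile cows and from 54.7% to 65.0% in the fertile cows. Of the 18 markers that could be tested, 8 had a higher and 10 a lower mean in the subfertile cows, and 0 passed limma with Benjamini-Hochberg adjustment. Single markers differed more than this average, with 9 of 18 at an unadjusted p under 0.05 (50%, against 40.6% of all genes). The groups did not overlap in 3 of 18 (16.7%, against 3.38% of all genes), 1 each of the T cell, natural killer and neutrophil lists. The part of blood cell makeup in the channel values was not tested. The read depth behind each value is unknown. At 331 CpG sites in channel genes listed on both strands, the strands of 1 cow differed by a median of 6.67 percentage points, and by up to 24.3 points in 90% of 3857 comparisons.

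Channel cytosines lay deep inside genes. Introns held 1401 of them (94.8%, against 83.2% of all 92535 cytosines placed in genes) and promoters 54 (3.65%, against 13.0%). A further 20 were exonic, and 1 lay just downstream of KCNH2. The other 2 lay in a 3′ untranslated region and were given to KCNS1 as the nearest gene. The genes were spread over 24 chromosomes, with 0 on the X. They carried a median of 8 cytosines, against 3 over all genes, and the number followed the length of the longest listed transcript (Spearman rho 0.662 over 70 genes, a description across genes that share the same 12 cows). A small number of long genes dominated: 12 genes with 40 or more cytosines held 923 of the 1478 (62.4%), while 11 genes had a single one.

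Methylation was neither generally higher nor generally lower in the channel genes of subfertile cows. At the level of cytosines, 756 were higher and 722 lower (51.2% higher, against 50.6% over all genes), and without KCNMA1 603 of 1314 were higher (45.9%). At the level of genes, the mean was higher in 32 and lower in 33 of the 65 genes with a value in all cows (49.2% higher, against 51.8%). Of the 6 genes that could not be tested because a cow lacked a value (CACNB1, KCNJ15, KCNIP2, KCNK6, KCNF1 and KCNV2), each had 1 cytosine and none separated the groups. The median difference of the tested genes was -0.00834 points, against 1.78 points over all genes, and the median size of the difference was 17.2 points, against 26.4 points. At single cytosines the median size was 33.4 points both in channel genes and over all genes.

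No channel gene passed the test of gene means. Limma on the log2 ratio of methylated to unmethylated percent, with Benjamini-Hochberg adjustment over all 9891 genes, called 0 of 65 channel genes at an adjusted p of 0.05, where 0.121% of all genes were called, and the smallest adjusted p was 0.0614, for CACNG5. At an unadjusted p under 0.05 there were 24 of 65 channel genes (36.9%, against 40.6% of all genes), 14 with a higher and 10 with a lower mean in the subfertile cows (21.6% and 18.9% of all genes). The cows of the groups did not overlap in 3 of 65 genes (4.62%, against 3.38% of all genes), which were CACNG1, CACNG5 and KCND2, all higher in the subfertile cows (2.12% of all genes). These shares lie near those of all genes, whose cytosines passed the same selection. Differences are given below as subfertile minus fertile, and adjusted p-values are from this limma fit with Benjamini-Hochberg adjustment.

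**Figure D1:**
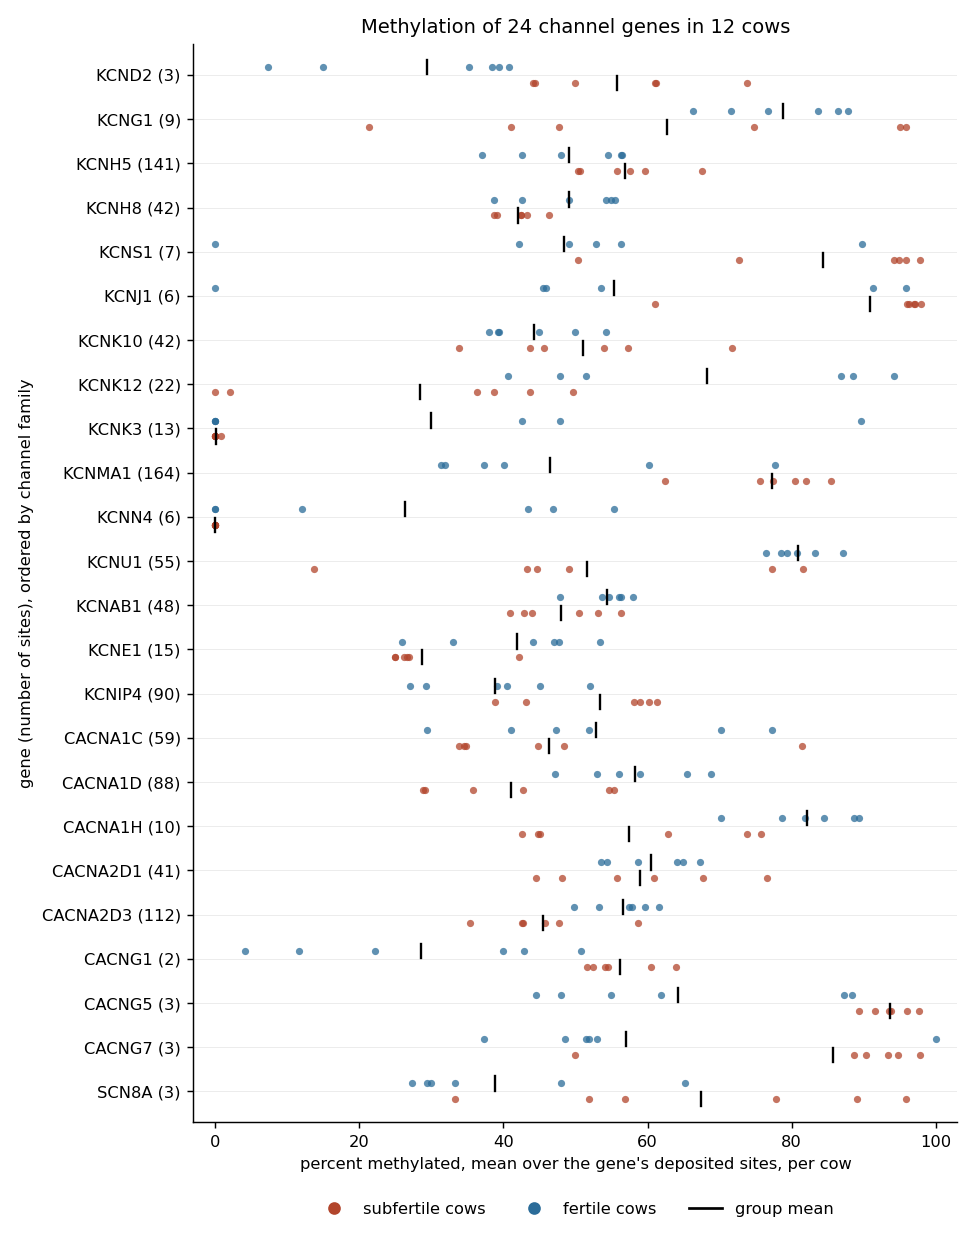
Percent methylated, averaged over the deposited cytosines of a gene, in each of 6 subfertile cows (red points) and 6 fertile cows (blue points) for 24 named channel genes, with black bars for the group means and the number of cytosines in brackets. Only CACNG1, CACNG5 and KCND2 show groups that do not overlap, and in KCNMA1 a single fertile cow, at 77.7%, lies among the subfertile cows.

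The potassium channels opened by calcium or sodium, grouped with their relative KCNU1, comprised 6 genes with 253 cytosines. The mean was higher in 3 and lower in 3 in the subfertile cows, and 0 of 6 passed the test. KCNMA1 (ENSBTAG00000013300, chromosome 28), the pore of the large-conductance calcium- and voltage-gated potassium channel, carried 164 cytosines over 736 kb, more than any other channel gene. Subfertile cows ranged from 62.4% to 85.5% with a median of 78.9%, and the fertile cows from 31.3% to 77.7% with a median of 38.7%. All subfertile cows but the lowest stood above 75%, whereas 4 fertile cows stood between 31.3% and 40.1%, 1 at 60.2%, and only fertile cow 6 reached the level of the subfertile group. The means were 77.2% ± 8.03 (SD, n = 6) and 46.4% ± 18.6 (SD, n = 6), a difference of 30.8 points or 1.78 ± 0.52 on the log2 scale (± SE, adjusted p = 0.0699). Of the 164 cytosines, 153 were higher in the subfertile cows, and the difference was alike in intron 1 (72 cytosines, 32.0 points) and in the rest of the gene (92 cytosines, 30 points). Without fertile cow 6 the difference was 37.1 points and the adjusted p 0.0563.

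In KCNMA1 6 clusters of at least 5 cytosines, each with gaps of at most 1 kb, showed how the pattern repeated along the gene. The widest gap was at chr28:33362383-33363173 in intron 1, where the subfertile cows ran from 50.9% to 97.3% with a median of 93.6%. Fertile cows 1, 2 and 5 were at 0% there, fertile cows 3 and 4 at 46.9% and 37.8%, and fertile cow 6 at 93.8%. Levels at or near 0%, near the middle of the scale and near 100% were thus all present in the fertile group. Fertile cow 6 stood between 70.6% and 95.0% in all 6 clusters. Fertile cow 4 was high as well at chr28:32740273-32742121 (94.1%), chr28:32836423-32837844 (93.3%) and chr28:33260497-33261354 (84.6%), but not in the other 3 clusters, where it lay at 16.7%, 39.6% and 37.8%. Which cows were high therefore differed between clusters of the same gene.

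**Figure D2:**
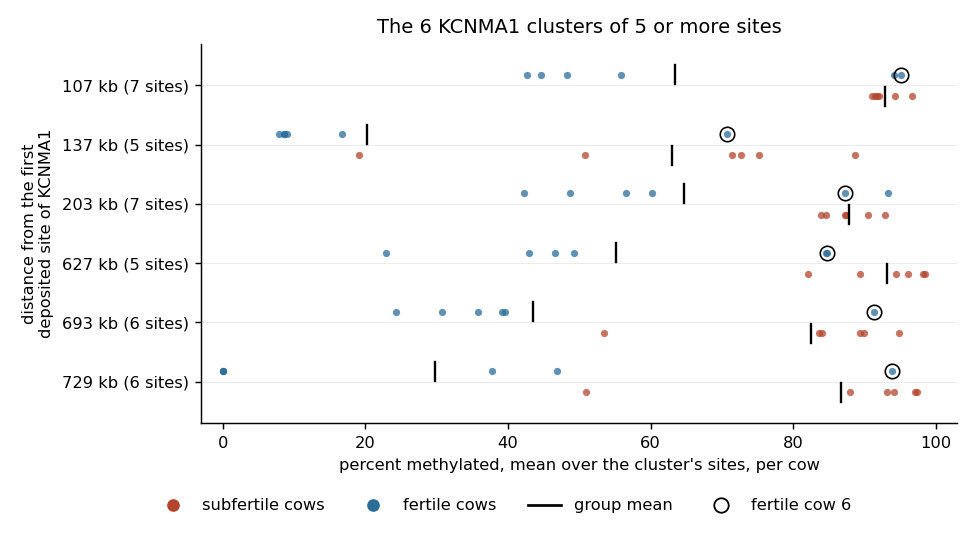
Percent methylated in 6 clusters of 5 to 7 cytosines of KCNMA1, placed by distance in kb from the gene's first deposited cytosine, with 1 point per cow, black bars for the group means and a ring around fertile cow 6. The ringed cow lies with the subfertile cows in all 6 clusters, and in the cluster farthest from that cytosine 3 fertile cows lie at 0%.

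KCNU1 (ENSBTAG00000027118, chromosome 27), a relative of KCNMA1 known as the alkalinization-activated potassium channel of sperm, went the other way at 47 of its 55 cytosines. Levels in the subfertile cows ran from 13.7% to 81.6% with a median of 46.9%, and the fertile cows from 76.5% to 87.1% with a median of 80.1%. The fertile cows lay close together, and subfertile cows 1 and 5, at 77.2% and 81.6%, lay within their range. The means were 51.6% ± 25 and 80.9% ± 3.78 (SD, n = 6 each), a difference of -29.3 points (log2 -1.77 ± 0.64, adjusted p = 0.0864). The largest cluster of any channel gene lay here, 24 cytosines at chr27:32206835-32211488 around exon 18, with subfertile cow 4 at 0.0%, cows 2, 3 and 6 between 41.4% and 46.8%, and cows 1 and 5 at 85% and 89.4%. The fertile cows lay between 82.4% and 91.9% in it. The difference in the remaining 31 cytosines was -22.7 points. At 52 of the 55 cytosines the cows spread from under 10% to over 80%. This spread is called genotype-like here because a DNA variant at a cytosine also gives it. Of all channel cytosines, 982 of 1478 (66.4%) were genotype-like, against 69.7% of all cytosines in genes, and in KCNMA1 70 of 164 were. Without the 52 cytosines the KCNU1 difference was 4.48 points over the other 3. No genotypes were analysed, and the part of variants in these values was not tested.

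KCNN4 (ENSBTAG00000004588, chromosome 18), the intermediate-conductance calcium-activated potassium channel of lymphocytes and red cells, had 6 cytosines in intron 3 over 4.08 kb. All 6 subfertile cows were at 0% at every one of them that had a value. Fertile cows 1, 2 and 3 had means of 43.4%, 55.3% and 46.9%, fertile cow 6 had 12.1%, and fertile cows 4 and 5 were at 0%. The difference was carried by 4 of 6 fertile cows and came to -26.3 points (log2 -2.48 ± 0.84, adjusted p = 0.0806). In fertile cow 6 the value came from both strands of 1 CpG, at 47.6% and 25%, with 0% at the other cytosines measured. None of the 6 was genotype-like, since no cow exceeded 66.7%. KCNN2 and KCNN3, the small-conductance channels, and KCNT1, a sodium-activated channel, had adjusted p-values of 0.105, 0.398 and 0.323.

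The voltage-gated potassium pores formed the largest family, with 19 genes, 17 of them tested, and 399 cytosines. Means were higher in 9 and lower in 10 in the subfertile cows, 3 in each direction had an unadjusted p under 0.05 (21.6% higher and 18.9% lower over all genes), and 0 passed the test. KCND2 (ENSBTAG00000032077, chromosome 4), a pore of the transient A-type current that spaces action potentials, had 3 intronic cytosines spread over 418 kb. The subfertile cows ran from 44.1% to 73.8% with a median of 55.5%, and the fertile cows from 7.41% to 40.8% with a median of 36.9%. The groups did not overlap, although they overlapped at each of the 3 cytosines taken singly, where levels ranged from 0% to 61.5% at 2 of them and from 22.2% to 100% at the other. The difference was 26.4 points (log2 1.59 ± 0.54, adjusted p = 0.0809). All 3 cytosines had a value in every cow. KCND3, a close relative, lay in the opposite direction with 15 of 17 cytosines lower, at -22.5 points (adjusted p = 0.0990).

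KCNH5 (ENSBTAG00000011379, chromosome 10), a voltage-gated channel of the ether-à-go-go group found mainly in the brain, held 141 cytosines, 84 higher and 57 lower. The gene mean hid this split. It ran from 50.4% to 67.6% with a median of 56.7% in the subfertile cows and from 37.0% to 56.4% with a median of 51.2% in the fertile cows, with wide overlap and a difference of 7.80 points (adjusted p = 0.330). Without its 121 genotype-like cytosines the difference was 22.0 points (adjusted p = 0.0240), in a setting that keeps cytosines by the cows' spread and calls 42.2% of all genes. At the 84 higher cytosines the cows ran from 39.5% to 85.8% against 8.7% to 41.7%, and at the 57 lower ones from 0.0% to 84.5% against 43.8% to 85.1%. In the lower set subfertile cow 2 (84.5%) stood with the fertile cows, subfertile cows 5 and 6 were near 0%, and fertile cow 4 was at 43.8%. In the higher set subfertile cow 2 (39.5%) again stood with the fertile cows. The split by direction was made on these values and carries no test. KCNH8, of the same group, had 16 higher and 26 lower cytosines and a difference of -7.11 points (adjusted p = 0.342), and KCNH1 had 31 of 36 higher and a difference of 23.0 points (adjusted p = 0.0912).

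KCNS1 (ENSBTAG00000008870, chromosome 13), a silent subunit that modifies other potassium channels rather than forming a pore alone, was higher at all 7 cytosines. All 7 were genotype-like, and 2 of them lay beyond its longest listed transcript (6.58 kb), at 18291 and 18292 bases from its start. Subfertile cows ranged from 50.4% to 97.8% with a median of 94.5%, and the fertile cows from 0% to 89.7% with a median of 51.0%. Subfertile cow 4 was the lowest of its group and fertile cow 3 the highest of the other, and these cows made the groups overlap. The difference was 35.9 points (log2 2.80 ± 1.04, adjusted p = 0.0899). KCNG1, another silent subunit on the same chromosome, had 9 cytosines, all genotype-like, and a difference of -16.1 points (adjusted p = 0.468). Its subfertile cows ran from 21.4% to 95.8% and its fertile cows from 66.3% to 87.8%. Without subfertile cow 6 its difference was -7.86 points.

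The inward rectifiers, which pass potassium more easily into the cell than out of it, were few: 3 genes with 10 cytosines, 9 of them higher. KCNJ1 (ENSBTAG00000000008, chromosome 29), the ROMK channel of the kidney, was higher at all 6, and all 6 were genotype-like. Subfertile cow 1 was at 61.1% and the other subfertile cows between 96.1% and 97.9%. The fertile cows spread over the scale, with cow 2 at 0%, cows 1, 3 and 4 between 45.6% and 53.6%, and cows 5 and 6 at 91.4% and 95.9%. The difference was 35.5 points (log2 2.87 ± 1.16, adjusted p = 0.101).

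Among the two-pore channels, which leak potassium at rest, 7 of 9 genes had lower means in the subfertile cows, 64 cytosines were higher and 110 lower, and 0 of 8 tested genes passed. KCNK12 (ENSBTAG00000017500, chromosome 11), a subunit not known to carry current alone, was lower at all 22 cytosines. Levels in the subfertile cows ran from 0% to 49.7% with a median of 37.5%, and the fertile cows from 40.6% to 94.2% with a median of 69.2%. Fertile cows 1, 2 and 3 stood between 86.9% and 94.2% and cows 4, 5 and 6 between 40.6% and 51.5%, while 4 subfertile cows stood between 36.4% and 49.7% and subfertile cows 3 and 6 at 2.12% and 0%. The difference of -39.8 points (log2 -2.90 ± 0.96, adjusted p = 0.0791) was the most negative of the channel genes with at least 3 cytosines. A cluster of 13 cytosines at chr11:29942089-29944616, in intron 1, had subfertile cows 3 and 6 at 3.59% and 0% and fertile cows 1, 2 and 3 above 92% likewise, and 21 of the 22 cytosines were genotype-like.

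KCNK3 (ENSBTAG00000051102, chromosome 11), the acid-sensitive TASK-1 channel, was almost unmethylated in the subfertile cows at its 13 intronic cytosines, with 5 cows at 0% and 1 at 0.769%. Fertile cows 1, 2 and 3 were at 0% as well, and fertile cows 4, 5 and 6 were at 89.6%, 42.6% and 47.8%. The difference of -29.9 points (adjusted p = 0.118) rested on those 3 cows, and without fertile cow 4 it was -18.0 points. Of the 13 cytosines, 11 were genotype-like. KCNK10 (ENSBTAG00000019355, chromosome 10), the TREK-2 channel opened by membrane stretch, had 25 higher and 17 lower cytosines and a difference of 6.73 points (adjusted p = 0.461), which ran from 2.60 without subfertile cow 1 to 10.2 without subfertile cow 3. Its lower cytosines were mostly 1 cluster of 12 at chr10:99991473-99994963, with subfertile cows from 8.33% to 80.3% and fertile cows from 8.33% to 88.0%.

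**Figure D3:**
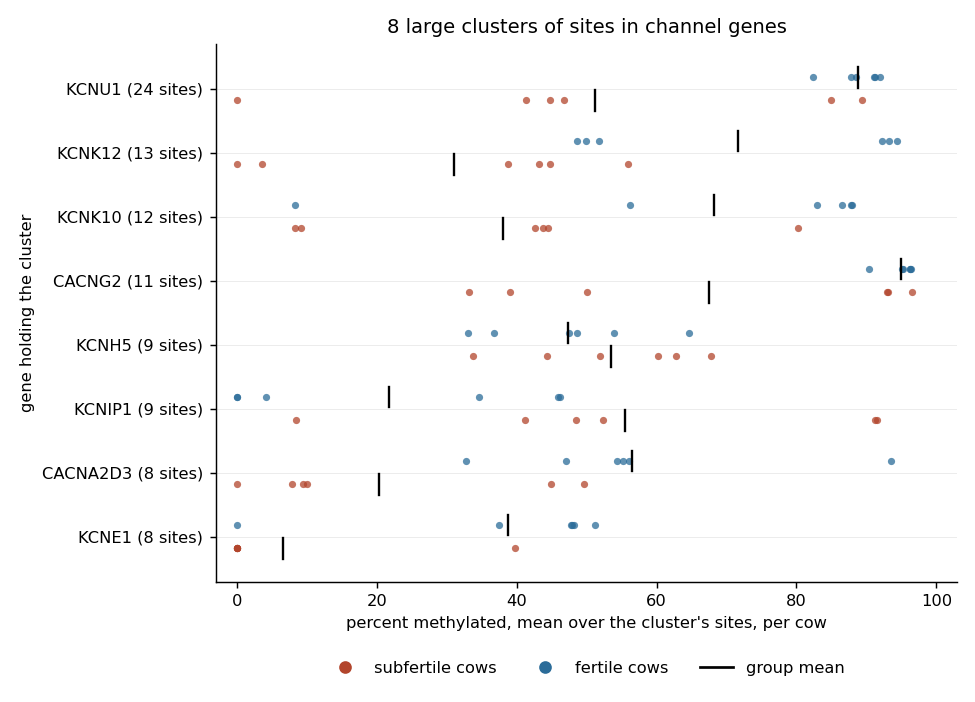
Percent methylated per cow in 8 large clusters of channel cytosines (8 to 24 each), named by gene, with red points for subfertile cows, blue points for fertile cows and black bars for group means. In KCNU1, KCNK12 and CACNG2 the cows of a group stand at separate levels, and the groups overlap in all 8 clusters.

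The partners of potassium channels comprised 7 genes, 6 of them tested, with 121 higher and 75 lower cytosines and 0 passing. KCNIP4 (ENSBTAG00000047743, chromosome 6), a calcium-binding subunit of A-type channels such as KCND2, held 90 cytosines over 1230 kb, 61 of them higher. In the subfertile cows the level ran from 38.8% to 61.4% with a median of 58.5%, and the fertile cows from 27.0% to 52.1% with a median of 39.8%. Subfertile cows 2 and 5 lay within the range of the fertile cows, and the difference was 14.6 points (log2 0.79 ± 0.40, adjusted p = 0.145), or 3.65 points without the 70 genotype-like cytosines. Its relative KCNIP1 had 33 of 38 cytosines higher (25.4 points, adjusted p = 0.0982), with a cluster at chr20:2479778-2479794 that ran the other way (43.5% ± 33.3 against 82.3% ± 25.3, SD, n = 6 each). KCNAB1, a cytoplasmic beta subunit, had 19 higher and 29 lower cytosines and a difference of -6.43 points (adjusted p = 0.384).

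KCNE1 and KCNE2, single-span subunits that slow or reshape cardiac potassium currents, lie 78.0 kb apart on chromosome 1, and neither passed the test. KCNE1 was lower at 11 of 15 cytosines, with subfertile cow 2 at 42.2%, the other subfertile cows between 24.9% and 27.0%, and the fertile cows between 25.9% and 53.4%, a difference of -13.2 points (adjusted p = 0.151). Averaging cytosines within 1 kb first turned it to 2.62 points. Without the 5 genotype-like cytosines it was -30.6 points (adjusted p = 0.0282), in a setting that calls 42.2% of all genes. In its cluster of 8 cytosines at chr1:1045672-1046544, in intron 2 and exon 3, 5 subfertile cows were at 0% and subfertile cow 2 at 39.8%, while 5 fertile cows were between 37.4% and 51.3% and fertile cow 2 at 0%. KCNE2 was higher at both strands of the single CpG it had, in exon 2, with subfertile cows from 46.7% to 100% and fertile cows from 0% to 95.0% (41.8 points, adjusted p = 0.0791).

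The calcium channel pores comprised 7 genes with 75 higher and 128 lower cytosines; the mean was lower in 5 of 7 genes and 0 passed. CACNA1H (ENSBTAG00000026461, chromosome 25), a T-type channel that opens near resting voltage, was lower at 9 of 10 cytosines. The subfertile cows ran from 42.6% to 75.8% with a median of 54.0%, and the fertile cows from 70.2% to 89.3% with a median of 83.2%. Only subfertile cows 1 and 5, at 73.8% and 75.8%, reached the fertile range, and only above its lowest cow. Means of 57.5% ± 15.3 and 82.2% ± 7.13 (SD, n = 6 each) gave -24.7 points (log2 -1.56 ± 0.47, adjusted p = 0.0725).

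CACNA1D and CACNA1C, the L-type channels of endocrine cells and of heart and smooth muscle, held 88 and 59 cytosines, of which 60 and 38 were lower. In CACNA1D (ENSBTAG00000010026, chromosome 22) the subfertile cows ran from 28.9% to 55.4% with a median of 39.2%, and the fertile cows from 47.2% to 68.8% with a median of 57.5%. Subfertile cows 4 and 6, at 55.4% and 54.7%, overlapped the lower fertile cows, and the difference was -17.1 points (log2 -0.93 ± 0.41, adjusted p = 0.113). The cluster at chr22:47288113-47288580 in intron 8 had subfertile cows 1, 3 and 5 at 0% and the other 3 between 35.5% and 46.7%, against 40.8% to 97.1% in the fertile cows. In CACNA1C (ENSBTAG00000010660, chromosome 5) subfertile cow 3 was at 81.4% and the other subfertile cows between 33.8% and 48.5%, while the fertile cows ran from 29.4% to 77.2%, a difference of -6.54 points (adjusted p = 0.646). Leaving out 1 cow moved this value from -13.6 points, without subfertile cow 3, to -1.66 points, without fertile cow 1. Without the genotype-like cytosines, 60 in CACNA1D and 35 in CACNA1C, the remaining ones differed by 18.6 and 21.2 points in the opposite direction (adjusted p = 0.0413 and 0.0294). That setting keeps cytosines by the cows' spread and calls 42.2% of all genes.

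The calcium channel partners shape how many channels reach the membrane and how they gate, and comprised 11 genes, 10 of them tested, with 77 higher and 129 lower cytosines and 0 passing. CACNG5 (ENSBTAG00000012311, chromosome 19), a gamma subunit that also regulates glutamate receptors, had the smallest adjusted p of the channel genes, from 3 intronic cytosines within 8.01 kb. Subfertile cows ranged from 89.4% to 97.6% with a median of 93.6%, and the fertile cows from 44.5% to 88.4% with a median of 58.5%. The groups did not overlap, but the highest fertile cow came within 1 point of the lowest subfertile cow. Means of 93.6% ± 2.96 and 64.2% ± 19.3 (SD, n = 6 each) differed by 29.5 points (log2 2.27 ± 0.56, adjusted p = 0.0614). At chr19:62991958 in intron 2, 1 cow of each group lacked a value, and over the other 2 cytosines the groups overlapped (84.1% to 96.4% against 37.4% to 93.8%).

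CACNG1 (ENSBTAG00000007547, chromosome 19), the gamma subunit of the skeletal muscle channel, lies 125 kb from CACNG5. These genes are neighbours and may not be separate results, which was not tested. It had 2 promoter cytosines. Levels in the subfertile cows ran from 51.6% to 63.9% and the fertile cows from 4.17% to 50.8%, without overlap, and the difference was 27.6 points (log2 1.73 ± 0.59, adjusted p = 0.0812). The groups overlapped at each of the 2 cytosines taken singly. At chr19:63126166, where fertile cow 1 lacked a value, the subfertile cows ran from 14.3% to 54.5% and the fertile cows from 0% to 15%. At the other, fertile cow 4 was at 91.7%. CACNG7 (ENSBTAG00000007506, chromosome 18), related to CACNG5, was higher at its 3 cytosines by 28.7 points (adjusted p = 0.125), with subfertile cow 3 at 50% and fertile cow 2 at 100% outside the remaining cows of their groups.

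CACNA2D3 (ENSBTAG00000013117, chromosome 22), an alpha-2-delta subunit that carries channels to the membrane, held 112 cytosines, 37 higher and 75 lower. In the subfertile cows the level ran from 35.3% to 58.6% with a median of 44.2%, and the fertile cows from 49.8% to 61.5% with a median of 57.6%. Subfertile cow 1 alone stood in the fertile range, and the difference was -11.1 points (log2 -0.59 ± 0.34, adjusted p = 0.180). Without the 97 genotype-like cytosines it was -19.7 points (adjusted p = 0.0406), in a setting that calls 42.2% of all genes. At its 8-cytosine cluster chr22:46162507-46163935 in intron 13, subfertile cows 2, 3, 4 and 6 were at or under 10.1%. Subfertile cows 1 and 5, at 49.6% and 44.9%, lay within the range of the fertile cows (32.7% to 93.4%), and all 8 cytosines were genotype-like. CACNA2D1, the alpha-2-delta subunit that gabapentin binds, differed by -1.53 points over 41 cytosines (adjusted p = 0.901), and by -21.5 points without the 23 genotype-like ones (adjusted p = 0.0566). CACNB4, a beta subunit, was lower at all 7 cytosines by 23.2 points, with adjusted p = 0.0754.

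The sodium channel pores had 7 genes with only 29 cytosines, 15 higher and 14 lower. The mean was higher in 5 of 7 genes (51.8% over all genes), 3 of which had an unadjusted p under 0.05 (21.6% over all genes), and 0 passed the test. SCN8A (ENSBTAG00000021339, chromosome 5), a channel that triggers firing at the start of axons, had 3 cytosines, all higher. Its subfertile cows ran from 33.3% to 95.8% with a median of 67.3% and its fertile cows from 27.4% to 65.2% with a median of 31.7%, overlapping, with a difference of 28.6 points (adjusted p = 0.100). SCN7A, SCN9A and SCN1A lie within 223 kb of the next on chromosome 2, and SCN2A lies 609 kb further on. SCN7A and SCN9A had 1 cytosine each, SCN1A was lower at 7 of 8 (adjusted p = 0.157) and SCN2A was even at 6 and 6 (adjusted p = 0.940). SCN4B, a beta subunit, differed by -17.2 points over 4 cytosines, 1 higher and 3 lower (adjusted p = 0.320). Of the 4, 3 were genotype-like, and the difference without those, at a single cytosine, was 32.2 points.

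**Figure D4:**
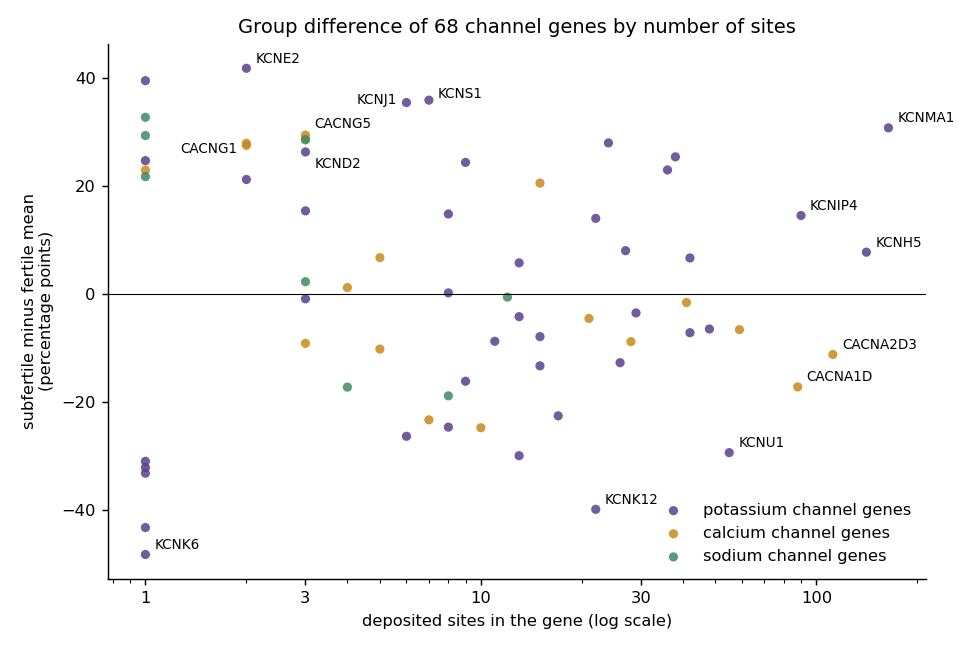
Difference of group means in percentage points (subfertile minus fertile) against the number of deposited cytosines on a log scale, with 1 point for each of 68 channel genes, coloured by ion. Genes with a single cytosine all lie at least 21.8 points from 0. The deposited difference of the channel cytosines, another measure than the unweighted difference plotted, was 25.1 points or more in size. Of the plotted genes with at least 40 cytosines only KCNMA1 at 30.8 and KCNU1 at -29.3 lie beyond 20 points.

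Long channel genes mostly held cytosines of both directions. Of 56 genes with at least 3 cytosines, 45 had some higher and some lower. Among 11 genes with at least 40 cytosines the share of higher ones ran from 8 of 55 in KCNU1 to 153 of 164 in KCNMA1. KCNH5, CACNA2D3, KCNIP4, CACNA1D and CACNA1C each had at least 21 in either direction. Cytosines near each other were not independent: over those with a value in all cows, the deviations of the cows from their group means correlated with a median size of r of 0.858 for cytosines within 1 kb in the same gene (873 pairs). The median fell to 0.785 from 1 to 10 kb, 0.527 from 10 to 100 kb, 0.418 beyond 100 kb and 0.234 between chromosomes. These are descriptions across pairs that share the same 12 cows. The 1478 cytosines formed 810 clusters with gaps of at most 1 kb, and in 0 of the 38 clusters with at least 5 cytosines did the groups separate.

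**Figure D5:**
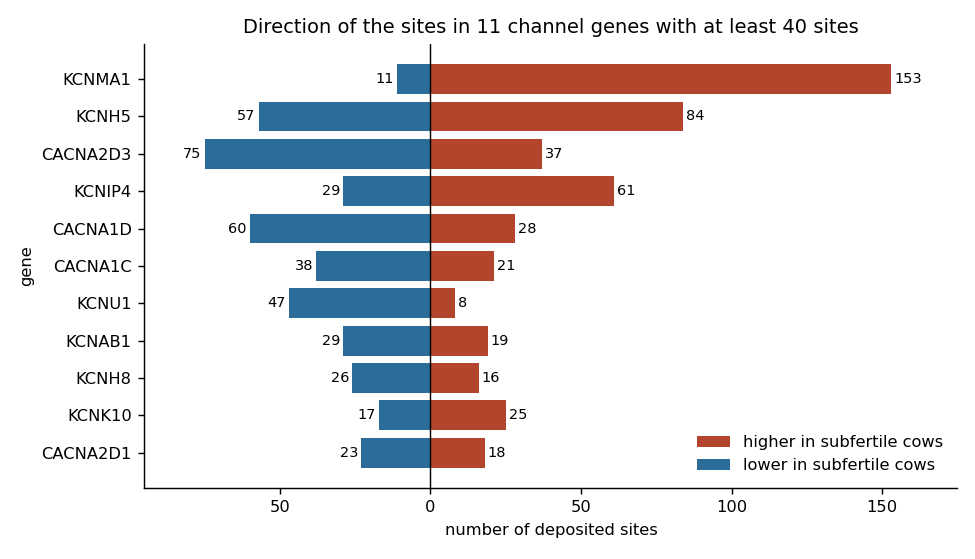
Number of deposited cytosines that were higher (red, to the right) or lower (blue, to the left) in the subfertile cows for 11 channel genes with at least 40 cytosines. KCNMA1 lies almost wholly on the higher side with 153 of 164, and KCNU1 mostly on the lower side with 47 of 55.

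Promoter methylation could be tested in 7 channel genes with at least 3 promoter cytosines, within 3 kb of the annotated start. Limma with Benjamini-Hochberg adjustment over 1292 genes called 0 of 7, where 15.9% of all genes were called. At an unadjusted p under 0.05 there were 4 of 7, against 51.9%. KCNS1 came nearest. Its 3 promoter cytosines, from chr13:73474679 to chr13:73474728 and 2 to 3 kb from the start, ran from 54.3% to 100% with a median of 93.1% in the subfertile cows and from 0% to 78.8% with a median of 46.4% in the fertile cows. The groups overlapped, with means of 84.4% ± 18.9 and 45.5% ± 26.2 (SD, n = 6 each), log2 3.12 ± 1.01 and adjusted p = 0.0503. This value lies at the threshold, and 5 of the alternative settings, as well as leaving out subfertile cow 4 or fertile cow 3, put it on the other side.

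The other promoters described here had adjusted p-values from 0.0835 to 0.459 in the same limma fit with Benjamini-Hochberg adjustment. KCNJ1, with 4 cytosines within 1 kb of the start, was higher in the subfertile cows (86.6% ± 22.1 against 51.0% ± 35.8, SD, n = 6 each, adjusted p = 0.0835). KCNAB1 (50.9% ± 25.6 against 78.1% ± 13.0, adjusted p = 0.0948) and KCNG1 (60.8% ± 41.8 against 93.1% ± 11.9, adjusted p = 0.117) had lower means there. The 13 promoter cytosines of CACNA1C, which belong to more than 1 annotated start, had means of 30.1% ± 22.5 and 48.1% ± 25.1 (adjusted p = 0.244). At 5 of them, chr5:108647988-108648524, subfertile cow 3 was at 95.0% and the other subfertile cows at 0%, while the fertile cows ran from 0% to 88.2%. The KCNE1 promoter differed by 7.74 points (adjusted p = 0.459), against the direction of the gene as a whole.

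At single cytosines the groups separated at 34 of 1478 (2.30%, against 2.93% of all cytosines in genes), 24 of them higher (1.73% over all genes) and 10 lower in the subfertile cows, in 17 genes. Introns held 32 and promoters 2, and 14 of the 34 were genotype-like, where 982 of all 1478 channel cytosines were. KCNH5 had 8, all higher. At chr10:75009631 in its intron 10 the subfertile cows ran from 53.3% to 100% and the fertile cows from 0% to 45.5%, and at chr10:75137549 in intron 7 from 42.9% to 53.8% against 0% to 21.4%, with 1 subfertile cow missing. CACNA1D had 4, of which chr22:47208955 in intron 30 had the widest gap of means, with subfertile cows from 0% to 50% and fertile cows from 57.1% to 100%. KCNMA1 had 3, among them chr28:32946286 in intron 2, with 75% to 92.9% against 30% to 68.8%. Both promoter cytosines lay 1 to 2 kb from a start: chr5:108770819 in CACNA1C was lower (0% to 37.5% against 38.9% to 85.7%), with 1 subfertile cow missing, and chr10:100072047 in KCNK10 was higher (50% to 100% against 25% to 45.5%), also with 1 subfertile cow missing.

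Exonic cytosines were too few for a comparison of their own. KCNU1 had 3, 2 of them the strands of 1 CpG in exon 18, where the means were 46.2% and 56.5% in the subfertile and 96.1% and 95.4% in the fertile cows. KCNH8 had 3, all higher, with 92.3%, 95.4% and 55.9% against 61.8%, 69.7% and 27.7%. The pair in a 3′ untranslated region, at chr13:73458527 and chr13:73458528, was given to KCNS1 as the nearest gene but lay beyond that gene's longest listed transcript. It had means of 88.1% and 89.8% in the subfertile and 54.1% and 58.3% in the fertile cows.

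Genes that work with these channels but lie outside the name pattern (calcium release and entry channels, calcium pumps and exchangers, TRP, HCN and sodium leak channels, calmodulin, calcineurin and NFAT) were set beside them. Of 82 such genes 47 had a deposited cytosine and 45 could be tested, 29 with a higher and 16 with a lower mean in the subfertile cows (64.4% higher, against 51.8% of all genes). Limma with Benjamini-Hochberg adjustment called 0 of 45, and 17 (37.8%, against 40.6% of all genes) had an unadjusted p under 0.05, 10 higher and 7 lower. The groups did not overlap in 2 of 45 (4.44%, against 3.38% of all genes). CAMK2G, a calmodulin-dependent kinase, had means of 48.3% ± 11.9 in the subfertile and 77.3% ± 10.7 in the fertile cows (SD, n = 6 each, adjusted p = 0.0644). NFATC3, a transcription factor that calcineurin activates, had 88.4% ± 1.09 and 61.8% ± 28.9 (SD, n = 6 each, adjusted p = 0.0977).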

How the data were processed

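Per the labels' protocols, blood DNA of 12 cows was sequenced after enzymatic conversion. Tools named in the submitters' processing notes are Bismark, DRAGEN, fastp 0.23.1 and ChIPseeker 1.32.1, and the genome is ARS-UCD1.2. The authors deposited, per the file headers, the percent methylated per cytosine and cow, group means, a difference in points (a score computed in a way not given in the sources used here), a p-value and a q-value. For channel cytosines the deposited difference was 25.1 to 69.0 points in size and the deposited q-value at most 0.00997. No counts are held, so depth is unknown and no interval is given. Replicate numbers only name cows, and whether the group letters F and R in the deposited columns mean what the labels say could not be checked: were they reversed, every direction would turn.

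The percent values were averaged per gene and cow. An exon or intron cytosine went to the gene that holds it, which for 468 cytosines (31.7%) was not the nearest gene; 2140 cytosines in 584 genes without a symbol stayed unnamed, and 1 gene that the name pattern takes and the values of 3 members, which stay in the counts, are not reported here. Limma 3.58.1 (R 4.3.3, Python 3.11.15) was fitted to log2((percent + 5)/(100 - percent + 5)) with no term but group, over genes with a value in all cows, and p-values were adjusted by Benjamini-Hochberg. The fit was tested on simulated data. Since the selection used the same cows, p-values are no independent evidence. Named genes were the 12 with most cytosines, the 6 largest differences in each direction among genes with at least 3 cytosines, genes whose groups do not overlap and genes with at least 3 promoter cytosines; KCND3, KCNE2, KCNH1, KCNIP1, CACNB4, relatives given for contrast, the clusters and the single cytosines were picked with their values in view. The members and gene lists were chosen with earlier results of these data known. Alternatives changed the points added, the scale, the cytosines kept, their grouping and the cows.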

Additional observations from a re-analysis of the deposited data

Results flagged for a closer look

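In 6 of the 52 groups of cows checked (26 genes that the naming rule takes, 2 groups each), 1 cow stood apart from the other 5 by Dixon's test. Chance does this in about 1 in 20 groups if values are normally distributed, which percentages at the floor of 0% are not. In CACNA1C subfertile cow 3 was at 81.4%, with the next cow at 48.5%. In CACNG7 subfertile cow 3 was at 50%, with the next at 88.6%, and fertile cow 2 was at 100%, with the next at 53.1%. In KCNE1 subfertile cow 2 was at 42.2%, with the next at 27.0%. In KCNJ1 subfertile cow 1 was at 61.1%, with the next at 96.1%. In KCNK3 subfertile cow 5 was at 0.769% with the other subfertile cows at 0%, and with those tied any other value would have been flagged.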

How the results depend on the processing

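The number of channel genes called by limma with Benjamini-Hochberg adjustment stayed at 0 under all settings but 1, leaving out each cow included: without genotype-like cytosines it was 18 of 51, where 42.2% of all genes were called. That setting keeps cytosines by the cows' spread, so smaller spread is built into it. The genes called under it included CACNG5, CACNA1H, KCNMA1, KCNH5, KCNE1, KCNN4, KCND2 and CACNA2D3, each in the direction of its full set of cytosines. CACNA1C, CACNA1D, KCNK9 and KCNK18 were called as well but turned. For promoters the count was 1 with 10 points added, on plain percent values and over cytosines with a value in all cows. It was also 1 on autosomes only and with a plain difference of at least 25 points. It was 2 of 3 without genotype-like cytosines, and 0 to 1 when a cow was left out. Genes without overlap numbered 1 of 64 over cytosines with a value in all cows and 1 of 53 at a deposited q of at most 0.001. They numbered 3 to 5 without a cow. Cytosines without overlap numbered 20 of 496 without genotype-like ones and 21 of 877 at that q. They numbered 49 to 104 of 1478 without a cow (104 without subfertile cow 2), since fewer cows overlap less. Shares over all genes and cytosines under these settings are not given, so these promoter and overlap counts have no background to be read against. Without genotype-like cytosines the difference turned in CACNA1C (21.2 points), CACNA1D (18.6), KCNH8 (1.69), KCNK10 (-0.728) and KCNU1 (4.48), and in SCN4B, CACNA1E, KCNK9, KCNK13 and KCNK18. CACNA2D1 turned with nearest genes (0.945), a plain difference of 25 points (0.773), that q (0.679) and without subfertile cow 2 or 3 (1.35 and 0.623, in a range from -5.06 when a cow was left out), KCNAB1 with that q (1.3), and KCNE1 with clusters averaged first (2.62). The cause was not tested. The counts of genes with a higher mean and with an unadjusted p under 0.05 stayed within 1.5 times. No paired analysis was possible because the cows carry no number shared between the groups.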

Other observations

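Cytosines between genes were outside the channel genes as defined, but 813 of them had a channel gene as the nearest gene, 68 genes in all, 24 of which had no cytosine within the gene. Of these 366 were higher and 447 lower in the subfertile cows (45.0% higher, against 53.2% of all cytosines between genes), and the groups separated at 14 (1.72%, against 3.23%). KCNC2 (chromosome 5), a fast potassium channel of rapidly firing neurons with no cytosine inside the gene, had 79 nearby, 72 of them lower, at a median of 59.1 kb from its start. The subfertile cows ran from 7.84% to 39.3% with a median of 8.18%, and the fertile cows from 7.48% to 79.3% with a median of 43.7%, so the ranges overlapped. KCNT1 (chromosome 11), whose own cytosines were mostly higher, had 27 of 30 nearby ones lower, with means of 23.0% ± 19.1 and 56.4% ± 31.3 (SD, n = 6 each).

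Nearby cytosines followed the gene in other cases. All 15 near KCNS1 were higher, with means of 78.7% ± 24.7 and 43.6% ± 24.7 (SD, n = 6 each). At a median of 184 kb from the start, 55 of 69 near KCNU1 were lower, with 45.4% ± 18.1 and 68.0% ± 8.74. Near KCND2, whose gene mean separated the groups, the mean over 21 cytosines (16 higher, 5 lower) did so as well. It ran from 55.3% to 68.5% in the subfertile and 26% to 53.6% in the fertile cows, at a median of 205 kb from the start. Elsewhere the mean of the nearby cytosines went against the gene. KCNMA1 had only 2 nearby, 1 higher and 1 lower (-4.17 points nearby, 30.8 in the gene). KCND3 had only 1 nearby (26.1 and -22.5). KCNB2 had 21 nearby, 16 higher and 5 lower (16.1 and -24.6). All these genes were picked with their values in view. No test was run on these values, and the nearest gene is a matter of distance only.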
